A study of Mus musculus with 4 samples.

Results

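The genes described here are 9 members of the Myc and Max network, a family of transcription factors that drive or restrain cell growth: Myc, Mycn, Mycl, Max, Mxi1, Mxd1, Mxd4, Mnt and Mlx. Every probe set that the array annotation gives to 1 of these genes was taken, which gave 21 probe sets of 9 genes out of 45037 probe sets of 18193 genes. Of the 21, 17 probe sets of 8 genes were past a filter on dim signal, a mean log2 intensity over the 4 arrays above 7.23. All 3 Mycl probe sets and 1 of the 2 Mnt probe sets were below it.

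The study asked whether blood stem and progenitor cells of adult mice change when hedgehog signalling is lost, and measured RNA on Affymetrix whole-genome mouse arrays. LSK cells (Lin-ckit+Sca1+) are the marrow fraction that holds the stem cells, and MP cells (Lin-ckit+Sca1-) are myeloid progenitors. WT mice were Smo flox/flox, Mx1Cre- and Smo-deficient mice were Smo flox/flox, Mx1Cre+, where Smo encodes the hedgehog signal transducer Smoothened. All mice of both genotypes carried the floxed alleles and received polyI:C, an interferon inducer, at 20 ug per g by 3 intraperitoneal injections, and their marrow was collected 6 weeks later. The Mx1 promoter that drives Cre responds to interferon and is not restricted to LSK or MP cells. For each genotype, cells of 4 mice of both sexes were combined into 1 pool, and both populations were sorted from it. There were thus 4 arrays, 1 for each of WT LSK, Smo-deficient LSK, WT MP and Smo-deficient MP, each from 20 ng of total RNA amplified over a pair of cycles. The strain label reads C57BL/6x129 for WT LSK, C57BL/6x130 for Smo-deficient LSK, C57BL/6x131 for WT MP and C57BL/6x132 for Smo-deficient MP. The age of the mice was not used here.

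Both sorted populations and the deletion were checked first. The most intense Smo probe set was lower in the Smo-deficient array by -3.05 (log2) in LSK and -1.78 in MP. Of the stem and LSK markers measured, 8 of 8 were above 0 in LSK minus MP and 7 passed the test, all but Kit, which both sorts select. Among the 7, Procr read 6.76 (WT) and 7.44 (Smo-deficient) in MP, so its brightness in LSK carried it past the filter. Of 8 myeloid progenitor markers, 7 were lower in LSK and 1, Csf3r, was higher. The median intensities of the arrays lay between 149.1 and 150.3, and the excess of the 3' over the 5' Actb control signal, which grows as RNA degrades, was 1.31 to 1.34 (log2) in MP and 1.53 to 1.55 in LSK. The Actb measure thus moved with the population. The same measure for Gapdh was 1.57 to 1.60 on 3 arrays and 1.78 on that of Smo-deficient LSK, which it set apart. The part of either in the differences below was not tested. The Y-linked gene Eif2s3y was higher in the Smo-deficient pool by 1.70 in LSK and 1.14 in MP and Xist was lower by -0.89 and -0.47, so the mix of males and females and the genotype cannot be told apart.

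Myc, Mycn and Mycl bind DNA as partners of Max at a sequence called the E-box, CACGTG, and raise the transcription of genes for ribosome production, metabolism and the cell cycle. Mxd1, Mxi1, Mxd4 and Mnt also pair with Max, occupy the same sites and bring in Sin3 corepressors, so they oppose Myc. Mlx is the counterpart of Max for the glucose-sensing factors Mlxip and Mlxipl, and it can also pair with Mnt and some Mxd proteins. In the marrow, Myc and Mycn are known to act together in keeping stem cells alive and able to divide, and the Mxd genes are known to rise as blood cells stop dividing and mature.

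Because the network binds the E-box and its own genes are candidates for binding, the start regions of the members were read from RefSeq (GRCm38.p6). Entries for 8 of the 9 members, all but Myc, were matched by symbol, 10 entries in all because Mxi1 has several starts, and the 250 bases before each start were searched for CACGTG. That motif is its own reverse complement, so 1 search covers both strands. It was in the windows of 3 members, Mxd4, Mnt and Mlx. It was in none of those of Mycl, Mxd1, Mycn, Max and Mxi1. By window the motif was in 3 of 10, against 6.0% of all 32851 windows of this length. By gene it was in 3 of 8, against 6.9% of 27025 genes. Whether the motif goes with the differences below was not tested. The windows of Mycn and Mxd4, the members with the largest population and genotype differences shared by both pools or populations, are printed whole, and 30 bases around the motif are printed for Mnt and Mlx. Capitals mark the E-box.
Mycn, chr12:12941837-12942086, minus strand: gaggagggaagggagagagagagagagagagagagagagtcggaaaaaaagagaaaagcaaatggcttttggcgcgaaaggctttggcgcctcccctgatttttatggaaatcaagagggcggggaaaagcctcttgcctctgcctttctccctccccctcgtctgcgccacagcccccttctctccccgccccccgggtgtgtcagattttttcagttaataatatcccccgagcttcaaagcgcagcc
Mxd4, chr5:34187711-34187960, minus strand: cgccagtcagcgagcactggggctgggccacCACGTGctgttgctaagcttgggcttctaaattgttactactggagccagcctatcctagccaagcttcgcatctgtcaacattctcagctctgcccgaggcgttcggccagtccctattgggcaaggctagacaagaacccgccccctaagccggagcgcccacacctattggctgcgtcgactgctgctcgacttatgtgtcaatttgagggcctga
Mnt, chr11:74830789-74830818, plus strand: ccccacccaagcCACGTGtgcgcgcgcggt
Mlx, chr11:101087238-101087267, plus strand: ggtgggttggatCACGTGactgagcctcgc
The first base of the motif lies 219 bases before the Mxd4 start, 123 before the Mnt start and 40 before the Mlx start used here. A start used here can lie inside the gene span given below. The Mxd4 and Mycn windows are outside that span, while the Mlx, Mycl and Mxi1 windows are wholly inside it. The Mnt window has 118 bases inside it, and those of Mxd1 and Max have 75. The Mycn window has no CACGTG. A match describes these letters only, and binding was not measured.

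In LSK against MP cells, Mycn was higher by more than 4-fold on its brightest probe set, but not on its others. Mxd4, on its brighter probe sets alone, and Mnt were modestly higher, and Mlx was lower. Myc, Max, Mxi1 and Mxd1 did not pass the test. Each population was compared within its own pool with limma, over 22518 probe sets, and called at a Benjamini-Hochberg adjusted p under 0.05. Of the 17 member probe sets past the filter, 4 (of 3 genes) were called higher in LSK, against 15.1% of all probe sets, and 2 (both Mlx) were called lower, against 7.19%. Of the lower calls, Mlx 1425930_a_at passed the filter only through the MP arrays, where it is bright, so nothing is read from that count. The other 11 were not called. The p-values rest on 2 pools of different genotype, with no replicate of either. The error behind them, given as SE below, is not the difference between the pools alone. It also draws on a variance that limma took from all probe sets tested. The SE was 0.108 on Mxd4 1434378_a_at, where LSK minus MP differed by 0.0416 between the pools. It was 0.127 on Mnt 1418192_at, where the pools differed by 0.3409. In bulk RNA, fewer cells of a type and less RNA per cell cannot be told apart.

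**Figure D1:**
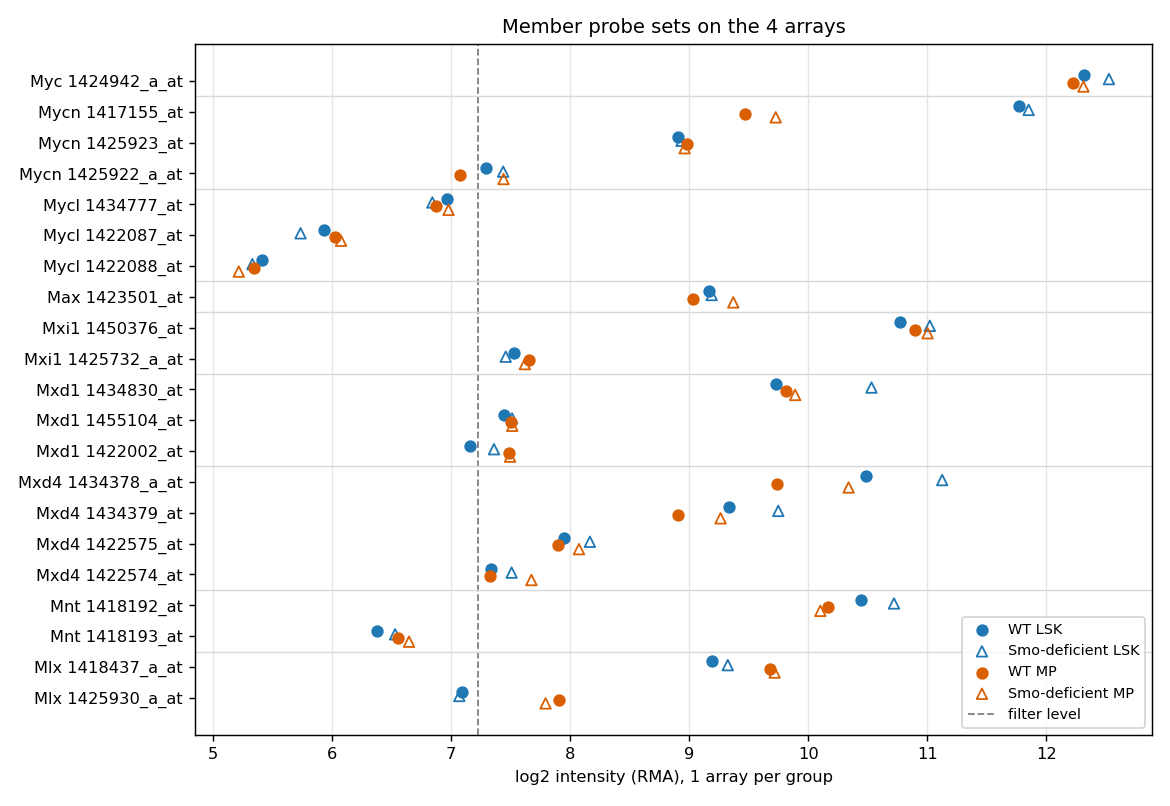
Log2 intensity (RMA, horizontal axis) of all 21 member probe sets on the 4 arrays, 1 point per array with no error bar because each group has 1 array; circles are WT, triangles Smo-deficient, blue LSK and orange MP, and the dashed line is the filter level of 7.23. Mycn 1417155_at separates the populations, with LSK at 11.77 and 11.85 and MP at 9.47 and 9.73, and on the Mxd4 probe set 1434378_a_at the Smo-deficient value lies above WT in each population.

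Among the activators, Myc, the broad driver of growth and division, was bright on every array. Its only probe set, 1424942_a_at (gene at chr15:61985341-61990361), read a log2 intensity of 12.31 (WT) and 12.52 (Smo-deficient) in LSK and 12.23 (WT) and 12.31 (Smo-deficient) in MP. The highest value was that of Smo-deficient LSK and the other 3 lay within 0.09 of each other, with WT LSK and Smo-deficient MP printing the same level. LSK minus MP was 0.09 within the WT pool and 0.21 within the Smo-deficient one, a mean of 0.15 ± 0.08 (SE, 2 pools) with an adjusted p = 0.229. Myc RNA thus had no called difference between the stem-cell-rich and the myeloid progenitor fraction.

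Mycn, the Myc relative named for its amplification in neuroblastoma, was the member that differed most. Its brightest probe set, 1417155_at (gene at chr12:12936093-12941836), read 11.77 (WT) and 11.85 (Smo-deficient) in LSK and 9.47 (WT) and 9.73 (Smo-deficient) in MP. Both LSK values lay above both MP values, 4.93-fold for WT and 4.36-fold for Smo-deficient mice. The mean log2 difference was 2.21 ± 0.11 (SE, 2 pools; adjusted p = 0.000141), which ranked 65 of 22518 probe sets and 41 of 11904 genes from the most LSK-rich. Of all probe sets past the filter, 0.289% differed by as much in the WT comparison and 0.480% in that of the Smo-deficient mice. The other Mycn probe sets did not show it. Probe set 1425923_at read 8.90 (WT) and 8.94 (Smo-deficient) in LSK and 8.99 and 8.96 in MP, a mean LSK minus MP of -0.05 ± 0.11 (SE; adjusted p = 0.764). Probe set 1425922_a_at was near the filter level at 7.29, 7.44, 7.08 and 7.44 in the same order, a mean of 0.10 ± 0.12 (SE; adjusted p = 0.557). Where the 3 probe sets lie on the transcript was not analysed here, so the population difference of Mycn rests on 1417155_at alone.

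Mycl, the third Myc protein, was dim everywhere. Its 3 probe sets (gene at chr4:122995588-123002490) read 6.84 to 6.98 (1434777_at), 5.74 to 6.08 (1422087_at) and 5.22 to 5.41 (1422088_at) over the 4 arrays. No array reached the filter level on any of them, and LSK minus MP lay between -0.34 and 0.11 over the 3 probe sets and both pools. Mycl was therefore not tested.

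Max, the partner that the Myc and Mxd proteins share, did not differ by the test. Its probe set 1423501_at (gene at chr12:76937269-76962323) read 9.17 (WT) and 9.19 (Smo-deficient) in LSK and 9.04 (WT) and 9.37 (Smo-deficient) in MP. The MP values enclosed both LSK values, so LSK minus MP was 0.13 within the WT pool and -0.18 within the Smo-deficient one (mean -0.02 ± 0.13, SE, adjusted p = 0.913).

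Of the repressors that pair with Max, Mxd4 had the clearest population difference. Its brightest probe set, 1434378_a_at (gene at chr5:34176580-34187710), read 10.49 (WT) and 11.12 (Smo-deficient) in LSK and 9.74 (WT) and 10.34 (Smo-deficient) in MP. Both LSK values were above both MP values, and LSK minus MP was 0.74 within the WT pool and 0.79 within the Smo-deficient one, a mean of 1.70-fold (0.77 ± 0.11 log2, SE; adjusted p = 0.00441). On 1434379_at the values were 9.34, 9.75, 8.91 and 9.26 in the same order, again without overlap between the populations, a mean of 1.37-fold (0.46 ± 0.11 log2, SE; adjusted p = 0.0301). That second call was lost when the arrays were quantile normalized again (adjusted p = 0.0602), and both were lost when the pool was left out of the fit (adjusted p = 0.189 and 0.245). The dimmer probe sets 1422575_at (7.90 to 8.17) and 1422574_at (7.33 to 7.68) differed by means of 0.07 and -0.08 and were not called.

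Mnt, the repressor that is present in most cells and sets the background against which Myc acts, was higher in LSK by the smallest margin called. Its probe set 1418192_at (gene at chr11:74830806-74845725) read 10.44 (WT) and 10.72 (Smo-deficient) in LSK and 10.16 (WT) and 10.10 (Smo-deficient) in MP. The populations did not overlap, and LSK minus MP was 0.28 within the WT pool and 0.62 within the Smo-deficient one, a mean of 1.36-fold (0.45 ± 0.13 log2, SE; adjusted p = 0.0484). The call held in 5 of 9 alternative settings, with an adjusted p from 0.0278 to 0.169. The other Mnt probe set, 1418193_at, was below the filter at 6.38 to 6.65, with differences of -0.18 and -0.12.

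Mxi1, a repressor named as an interactor of Max, did not differ by the test. Its brighter probe set, 1450376_at (gene at chr19:53310128-53373293), read 10.77 (WT) and 11.02 (Smo-deficient) in LSK and 10.90 (WT) and 11.00 (Smo-deficient) in MP, and both MP values lay between the LSK values. LSK minus MP was -0.12 within the WT pool and 0.02 within the Smo-deficient one (mean -0.05 ± 0.11, SE, adjusted p = 0.755). Probe set 1425732_a_at read 7.53, 7.46, 7.66 and 7.62 in the same order, a mean of -0.14 ± 0.11 (SE, adjusted p = 0.388).

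Mxd1, the repressor known for its rise when myeloid cells mature, differed between the pools more than between the populations. Its brightest probe set, 1434830_at (gene at chr6:86647044-86669234), read 9.73 (WT) and 10.53 (Smo-deficient) in LSK and 9.82 (WT) and 9.89 (Smo-deficient) in MP. Smo-deficient LSK stood above the other 3 arrays, which ran from 9.73 to 9.89. LSK minus MP was -0.09 within the WT pool and 0.64 within the Smo-deficient one (mean 0.28 ± 0.18, SE, adjusted p = 0.314). The dimmer probe sets 1455104_at (7.45 to 7.52) and 1422002_at (7.16 to 7.50) had mean differences of -0.03 and -0.23 and were not called.

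Mlx, the partner of the Mondo proteins, was the member lower in LSK, on both of its probe sets (gene at chr11:101086707-101092207). Probe set 1418437_a_at read 9.19 (WT) and 9.32 (Smo-deficient) in LSK and 9.68 (WT) and 9.72 (Smo-deficient) in MP. LSK was 1.35-fold lower by the mean of both pools (-0.44 ± 0.11 log2, SE; adjusted p = 0.0355). Probe set 1425930_a_at read 7.09, 7.07, 7.91 and 7.79 in the same order, 1.71-fold lower (-0.77 ± 0.11 log2, SE; adjusted p = 0.00443). On each probe set both LSK values were below both MP values, and on 1425930_a_at both LSK values were also under the filter level. That probe set passed the filter only through MP, so its fold and p are given as a description, and the test of Mlx rests on 1418437_a_at. The call on 1418437_a_at was lost without the pool as a block (adjusted p = 0.128).

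**Figure D2:**
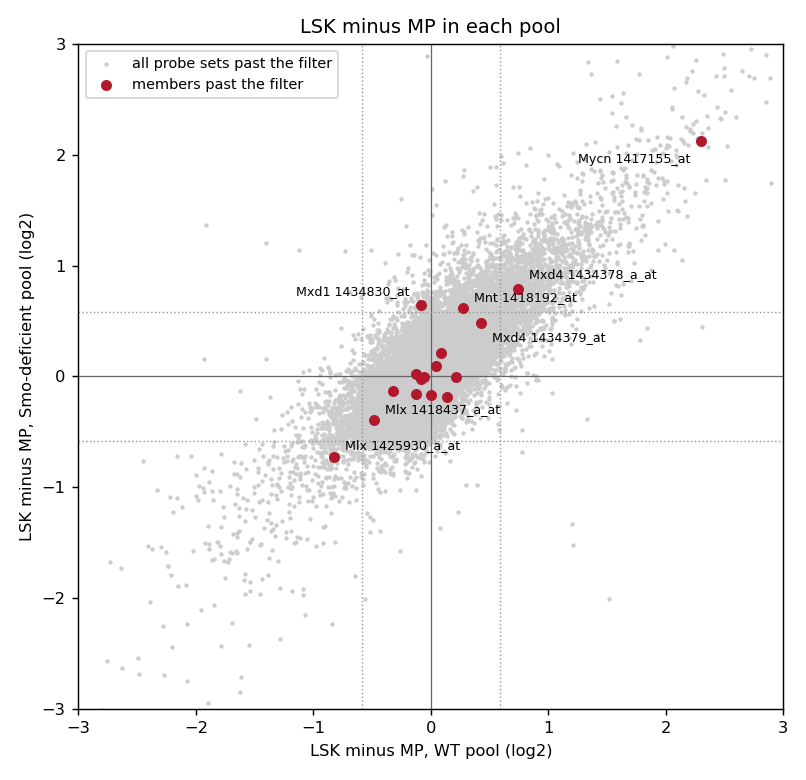
LSK minus MP (log2) in the WT pool (horizontal axis) against the Smo-deficient pool (vertical axis) for all 22518 probe sets past the filter (grey) and the 17 member probe sets (red); dotted lines mark 1.5-fold, and 29 probe sets lie outside the axes. Mycn 1417155_at lies at 2.30 and 2.12, both Mlx probe sets lie below 0 in both pools, and Mxd1 1434830_at is the labelled point near 0 in WT (-0.09) and at 0.64 in the Smo-deficient pool.

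The genes whose 4 values followed those of Mycn 1417155_at most closely were found among 11896 genes by the Euclidean distance between log2 values centred on their mean, over 4 arrays. The nearest was Itm2a, an integral membrane protein gene, at a distance of 0.13, with 11.25 (WT) and 11.50 (Smo-deficient) in LSK and 9.02 (WT) and 9.31 (Smo-deficient) in MP. Gbp2, an interferon-inducible guanylate binding protein gene, followed at 0.15, with LSK minus MP of 2.13 within the WT pool and 2.15 within the Smo-deficient one. Galnt12, which encodes an enzyme that starts O-linked glycosylation, was at 0.16 with differences of 2.23 and 2.28, and its MP values were below the filter level. No other member differed by 1 (log2) or more in both pools.

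Between genotypes, Mxd4 was higher in the Smo-deficient pool in both populations, Mxd1 was higher in Smo-deficient LSK alone among the 4 arrays, and Myc, Mycn, Max, Mxi1, Mnt and Mlx differed by less than 1.5-fold in each population. There is 1 pool per genotype, so no p-value was computed and no replicate checks these differences. In LSK, 2 of the 17 member probe sets were at least 1.5-fold higher (Mxd1 1434830_at and Mxd4 1434378_a_at), against 3.06% of all probe sets, and 0 were at least 1.5-fold lower, against 0.884%. In MP, 1 was at least 1.5-fold higher (Mxd4 1434378_a_at), against 2.35%, and 0 were lower by that much, against 2.63%. No member probe set differed by 2-fold in LSK, where 0.822% of all did, or in MP, where 0.639% did.

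On Mxd4 1434378_a_at, the values given above put Smo-deficient over WT by 1.56-fold in LSK (0.64 log2) and 1.51-fold in MP (0.60). In LSK 3.26% of all probe sets past the filter differed by as much, and in MP 4.67%. On 1434379_at the differences were 0.41 and 0.35, on 1422575_at 0.22 and 0.17, and on 1422574_at 0.18 and 0.35. All 4 Mxd4 probe sets were thus higher in the Smo-deficient pool in both populations, and the sign held for each of them under quantile normalization, median centring and cyclic loess. These probe sets read 1 gene in the same RNA and are not replicates.

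On Mxd1 1434830_at, Smo-deficient LSK was 1.74-fold above WT LSK (0.80 log2), a size that 1.72% of all probe sets reached, and the difference in MP was 0.07. The genotype difference in LSK exceeded that in MP by 0.73, and 2.04% of probe sets had such a contrast or a larger one. The other Mxd1 probe sets, both near the filter level, differed by 0.07 and 0.20 in LSK and by 0.01 and 0.01 in MP.

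Markers of several other cell types moved with the same comparison. All 7 neutrophil markers past the filter were higher in the Smo-deficient array of each population, with a median of 0.79 in LSK and 0.19 in MP and none of those measured below the filter. Their summed intensity was 73706 (WT) and 116926 (Smo-deficient) in LSK and 89288 (WT) and 101563 (Smo-deficient) in MP, so Smo-deficient LSK was the highest, as it was for Mxd1. Macrophage markers past the filter were higher in Smo-deficient LSK in 6 of 6 (median 0.66 in LSK, but 0.03 with 3 of 6 above 0 in MP, sums 1935, 3137, 2528 and 2813 in the same order, Itgam below the filter) and B cell markers in 5 of 5 (median 0.60, and 0.28 with 4 of 5 above 0 in MP, sums 1698, 2608, 1572 and 2003, Ebf1 below the filter). The 2 mature erythroid markers past the filter were higher in both populations (median 0.67 in LSK and 0.19 in MP, sums 5868, 9494, 6286 and 7258, Hba-a1 below the filter). Myeloid progenitor markers were higher in 6 of 8 in each population (median 0.46 in LSK and 0.53 in MP, sums 61387, 66001, 114378 and 134133, none below the filter). Mast cell and basophil markers were higher in 3 of 4 in LSK and 4 of 4 in MP (median 0.35 and 0.44, sums 7288, 8663, 9180 and 11675, Fcer1a below the filter). T and NK cell markers were higher in 3 of 4 in each population (median 0.10 and 0.09, sums 5791, 6164, 4841 and 6245, Cd3g below the filter). The 2 stroma and endothelium markers past the filter were lower in both populations (median -0.88 in LSK and -0.04 in MP, 3 below the filter). In LSK Col1a2 differed by -1.76 and Pecam1 by -0.002. The part of these cells in the Mxd1 and Mxd4 differences was not tested.

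The remaining genotype differences were small. Myc was higher in Smo-deficient cells by 0.21 in LSK and 0.08 in MP, and Mycn 1417155_at by 0.08 and 0.26. Max differed by 0.02 in LSK and 0.34 in MP, a size that 20.1% of all probe sets reached in MP. Mxi1 1450376_at differed by 0.25 and 0.10, Mnt 1418192_at by 0.28 and -0.06, and the Mlx probe sets by 0.13 and -0.02 in LSK and 0.04 and -0.12 in MP. The Mycl probe sets, all below the filter, differed by -0.20 to 0.10 over both populations. Above 0 were 15 of 17 member probe sets in LSK (median 0.18) and 13 of 17 in MP (median 0.08), where 46.7% and 40.3% of all probe sets past the filter were above 0. Under quantile normalization, median centring and cyclic loess 13 to 16 were above 0 in LSK, where 38.6% to 51.0% of all were. In MP 15 were above 0 under each of the 3, where 48.4% to 51.9% of all were. The 17 probe sets read 8 genes and are not replicates. The spread of all probe sets, taken as the scaled median absolute deviation, was 0.21 in LSK and 0.23 in MP. Without added scaling, 10 of 17 lay within that distance of 0 in LSK and 11 of 17 in MP. Of all probe sets, 33.0% differed by as much as Myc in LSK (0.21) and 30.8% by as much as Mycn 1417155_at in MP (0.26). Nothing is read from these counts, as most probe sets lie within such a distance.

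**Figure D3:**
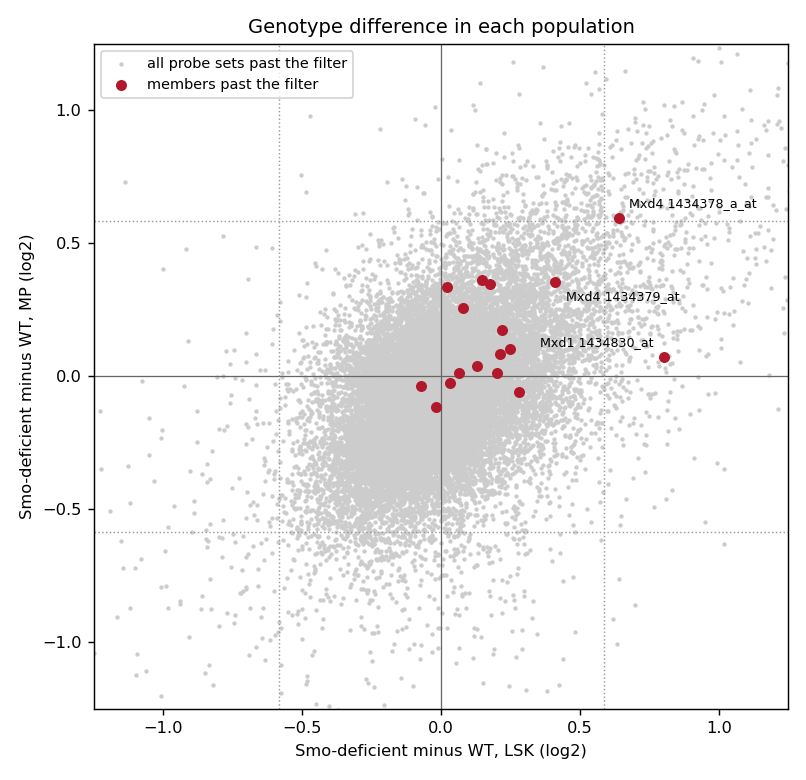
Smo-deficient minus WT (log2) in LSK (horizontal axis) against MP (vertical axis) for all 22518 probe sets past the filter (grey) and the 17 member probe sets (red); dotted lines mark 1.5-fold, and 104 probe sets lie outside the axes. Mxd4 1434378_a_at lies past both lines at 0.64 and 0.60, Mxd1 1434830_at past the LSK line alone at 0.80 and 0.07, and the other 15 members inside all lines.

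The genes around the network were described on 6 lists of 101 genes: other network members, cofactors and turnover, ribosome biogenesis and growth targets, metabolism and cell cycle targets, genes lowered by Myc, and Mlx and Mondo targets. Each gene was read on its brightest probe set among those assigned to it alone. Of all 11904 genes past the filter, 16.4% were called higher in LSK and 7.54% lower, with a median LSK minus MP of 0.00. Between genotypes, 3.14% of genes were at least 1.5-fold higher and 0.924% lower in LSK, and 2.56% higher and 2.24% lower in MP.

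Of the other network members, 3 of 4 were past the filter and 1 was called, higher in LSK. This was Mlxip, the glucose-sensing partner of Mlx, at 9.42 (WT) and 9.51 (Smo-deficient) in LSK and 8.92 (WT) and 9.07 (Smo-deficient) in MP, a mean of 0.47 ± 0.11 (SE; adjusted p = 0.027). That call was lost under quantile normalization and without the pool block. Its direction was opposite to that of Mlx. Mxd3, a Max-binding repressor (0.32), and Mga, a large Max partner (0.38), were not called, and Mlxipl was below the filter. In LSK Mxd3 and Mga had the largest genotype differences of these genes at 0.28 and 0.23, and in MP they were 0.15 for Mlxip and -0.25 for Mga, whose other probe set read 0.07.

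Of 24 cofactor and turnover genes past the filter, 3 were called higher in LSK, 2 lower and 19 not, with a median of 0.15. Pim1, a kinase that works with Myc, was higher by 0.85 ± 0.13 (SE; adjusted p = 0.00637), Bin1, which binds Myc and restrains it, by 0.56, and Sin3b, a corepressor scaffold used by the Mxd proteins, by 0.27. The other 2 Bin1 probe sets differed by -0.08 and 0.05. Skp2, a ubiquitin ligase subunit that acts on Myc, was lower by -0.40, and Ruvbl2, an ATPase of chromatin complexes that Myc recruits, by -0.30. Without the pool block none of these 5 calls was made (limma, adjusted p; 2 higher and 0 lower at an unadjusted p under 0.05). The largest genotype differences in LSK were 0.48 for Pim1, whose other probe set read -0.21, and -0.43 for Ruvbl2. In MP they were 0.66 for Bin1, whose other probe sets read -0.01 and 0.09, and -0.64 for Fbxw7, the ligase subunit that marks Myc for degradation.

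Of 27 ribosome biogenesis and growth genes past the filter, 10 were called lower in LSK, 0 higher and 17 not, with a median of -0.23. By limma at an unadjusted p under 0.05, 0 were higher and 15 were lower. No share over all genes is given here for that level. With the pool left out of the fit limma made 0 lower calls (6 at an unadjusted p under 0.05). The fit without a variance trend made 6, and the other settings made 8 to 20, the most under median centring. Lower calls over all 22518 probe sets moved likewise, from 1618 in the main fit to 4491 under median centring, 1250 without the trend and 140 without the block. Nolc1, a nucleolar phosphoprotein, was lower by -0.78 ± 0.08 (SE; adjusted p = 0.00129), Wdr12, a ribosome assembly factor, by -0.60, and Nop56, a core protein of the nucleolar methylation complex, by -0.58. The dimmer probe sets of these genes differed less, from -0.15 to 0.08 for Nolc1, 0.06 for Wdr12 and -0.17 for Nop56. Between genotypes, 0 of the 27 were above 0 in LSK (median -0.28) and 0 of 27 in MP (median -0.36), where 46.8% and 40.3% of all genes were above 0. Under quantile normalization 1 and 1 were above 0, and under cyclic loess 2 and 1. All 27 were bright enough to pass the filter at the 75th percentile. Among the genes past that filter, 47.7% were above 0 in LSK and 33.4% in MP. Of the 8 myeloid progenitor markers, the erythroid genes Gata1 (-0.79 in LSK and -0.54 in MP) and Car1 (-1.40 and -0.31) were also lower in the Smo-deficient pool. The other 6, of the granulocyte and monocyte line, were higher in both populations, among them Elane (0.87 and 0.78). Of the stem and LSK markers, 7 of 8 were higher in LSK and 6 of 8 in MP, among them Flt3 (1.21 and 0.95). The part of these cells in the lower ribosome list was not tested. Nolc1 passed 1.5-fold, with Smo-deficient below WT, in both populations (-0.71 in LSK and -0.60 in MP) and Nop58, another core methylation complex protein, in MP (-0.90). Bop1, a ribosome assembly factor, was at -0.49 in LSK, while its other probe set read 0.22.

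Of 24 metabolism and cell cycle genes past the filter, 2 were called higher in LSK, 8 lower and 14 not, with a median of -0.06. Tfrc, the transferrin receptor, was at 11.95 (WT) and 11.68 (Smo-deficient) in LSK and 13.41 (WT) and 12.82 (Smo-deficient) in MP, lower in LSK by -1.30 ± 0.10 (SE; adjusted p = 0.000494). Tmem97, a sterol-regulated membrane protein, was lower by -1.02 and Hspe1, the mitochondrial co-chaperonin, by -0.47. Ccnd2, a G1 cyclin, was higher by 0.77, with its other 6 probe sets all higher in LSK and 5 of them called, and Hk2, a hexokinase, by 0.48. The largest genotype differences were -0.58 for Cad, an enzyme of pyrimidine synthesis, and -0.48 for Shmt2, the mitochondrial serine hydroxymethyltransferase, in LSK. In MP they were -0.59 for Tfrc and -0.53 for the folate carrier gene Slc19a1. Of the 24, 4 were above 0 between genotypes in LSK and 7 in MP, where 46.8% and 40.3% of all genes were. All 24 passed the filter at the 75th percentile, where 47.7% of genes were above 0 in LSK and 33.4% in MP. Under quantile normalization 4 and 9 were above 0, against 44.1% and 50.1% of all genes. Under cyclic loess 4 and 10 were, against 51.0% and 53.5%, and under median centring 4 and 9. The lower calls between the populations fell to 3 without a variance trend and 2 without the pool block, where 1 higher call was made.

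Of 9 genes lowered by Myc that were past the filter, 3 were called higher in LSK, 2 lower and 4 not, with a median of 0.30. Ndrg1, a stress-responsive gene, was higher by 1.36 ± 0.09 (SE; adjusted p = 0.000313), Cdkn1a, the cell cycle inhibitor p21, by 1.04, and Hhex, a homeobox factor, by 0.49. Gadd45a, a DNA damage response gene, was lower by -0.94 and Cebpa, the myeloid transcription factor, by -0.56. Without the pool block 2 higher calls and 1 lower call were made. In LSK the largest genotype differences were 0.53 for the cell cycle inhibitor Cdkn1b and 0.45 for Gadd45a, and in MP 0.59 for Cebpa and 0.39 for Cdkn1a.

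All 4 Mlx and Mondo targets measured were past the filter, and 1 was called higher in LSK, 1 lower and 2 not, with a median of 0.20. Pklr, the pyruvate kinase of liver and red cells, was at 8.07 (WT) and 7.92 (Smo-deficient) in LSK and 10.31 (WT) and 9.63 (Smo-deficient) in MP, lower in LSK by -1.97 ± 0.15 (SE; adjusted p = 0.000516). Its other 2 probe sets read -1.20 and -0.48. Klf10, a zinc finger factor, was higher by 0.59 ± 0.14 (SE; adjusted p = 0.03), a call lost without the pool block. The largest genotype differences were 0.44 for Klf10 and 0.43 for the arrestin-family gene Arrdc4 in LSK, and -0.68 for Pklr and 0.04 for Arrdc4 in MP. The other Arrdc4 probe set read 0.03 in LSK and 0.28 in MP, the opposite order.

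**Figure D4:**
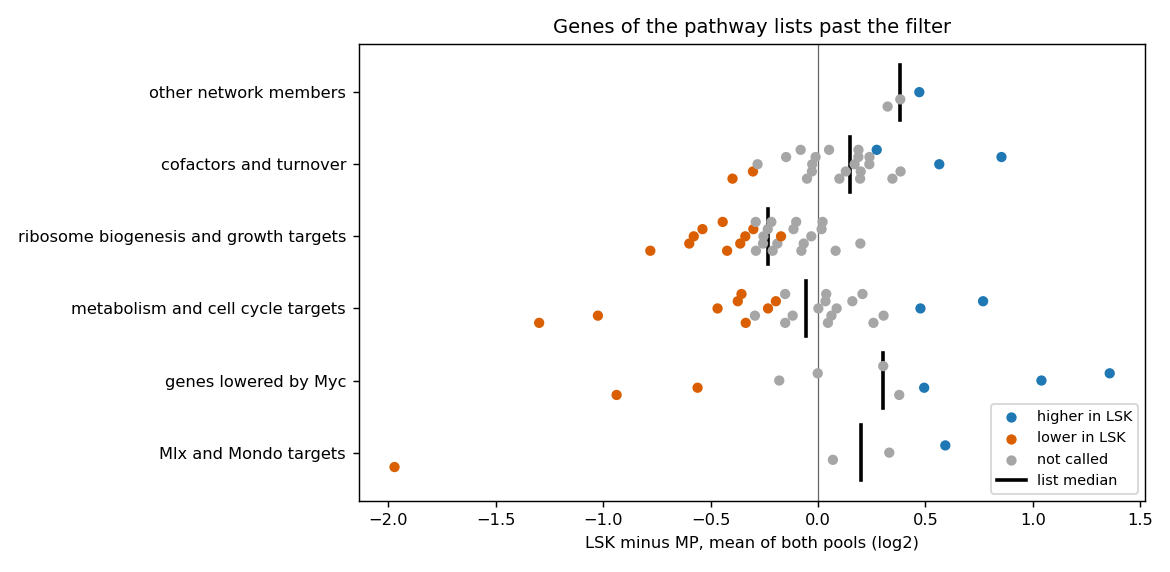
LSK minus MP (log2, mean of both pools, horizontal axis) of each gene past the filter on the 6 lists, 1 point per gene; blue is called higher in LSK, orange lower, grey not called, and the black bar is the list median. The ribosome list has 10 lower and 0 higher calls around a median of -0.23, while the genes lowered by Myc reach from -0.94 (Gadd45a) to 1.36 (Ndrg1).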

How the data were processed

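RNA of 4 sorted samples was measured on 1 array each. The authors deposited 1 table of intensity values, made with RMA per the submitters' processing notes (version not given in the sources used here). While RMA returns log2 values, the deposited intensity values run from 12.3 to 44290.5, so log2 was taken with no pseudocount. The method draws arrays to a common distribution, which can remove a shift shared by most genes. Depth does not apply to arrays, and their number limits the precision. After setting aside 64 control probe sets, probe sets were kept when their mean over the 4 arrays exceeded the 50th percentile. LSK and MP were compared with limma 3.58.1 in R 4.3.3 (lmFit, eBayes with trend, two-sided), with the pool as a block, which leaves 1 residual degree of freedom before moderation. The code was tested on simulated data. Genotypes were compared without a test, at 1.5-fold and 2-fold.

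All member probe sets are printed. From each list, the text names the 3 genes called with the largest LSK minus MP difference in each direction and the 2 genes with the largest genotype difference in each population. A gene's pattern was compared with a member only where that member differed by at least 1 (log2) in both pools. The members and lists were chosen with earlier results of these data known. Of the list genes, 5 had no probe set of their own in the annotation and were not analysed here. Promoter windows came from RefSeq (GRCm38.p6). Alternatives covered scaling, the filter, a pseudocount, the pool block, the variance trend and the choice of probe set.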

Additional observations from a re-analysis of the deposited data

Results flagged for a closer look

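Taking only the brightest probe set of each of the 8 members past the filter, 4 had population or genotype differences of opposite sign, each from 1 array per group, and none of the contrasts was tested. Dimmer probe sets, some of which also changed sign, are not listed. On Mxd1 1434830_at, LSK minus MP was -0.09 within the WT pool and 0.64 within the Smo-deficient one, a contrast of 0.73. On Max 1423501_at the values were 0.13 and -0.18, a contrast of -0.32. On Mxi1 1450376_at they were -0.12 and 0.02, a contrast of 0.14. On Mnt 1418192_at, Smo-deficient minus WT was 0.28 in LSK and -0.06 in MP, a contrast of 0.34, and the MP value ran from -0.06 to 0.06 over the scalings tried. Of all probe sets past the filter, 2.04% had a contrast as large as that of Mxd1, 20.8% as that of Max, 53.7% as that of Mxi1 and 17.9% as that of Mnt. The share of all genes with opposite signs is not given here, so nothing is read from the count of 4.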

How the results depend on the processing

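Of the 17 member probe sets, 6 were called between LSK and MP, and 5 or 6 under every alternative but 1. Without the pool as a block 2 were called, 1 higher (Mycn 1417155_at) and 1 lower (Mlx 1425930_a_at), against 4 and 2. As said above, Mlx 1425930_a_at passed the filter only through MP, so nothing is read from its call in any setting. With the filter at the 75th percentile 1 was called lower, because Mlx 1425930_a_at was then below the filter. Mycn 1417155_at was called under all 9 alternatives (adjusted p from 3.23e-09 to 0.00547) and Mxd4 1434378_a_at under 8 of 9 (0.000218 to 0.189). Mnt 1418192_at lost its call with no filter (adjusted p = 0.0545), the filter at the 25th percentile (0.0591), no variance trend (0.0589) and no pool block (0.169). The cause was not tested. With the Mycn probe set of second highest mean, its LSK minus MP was -0.053. The count of member probe sets at least 1.5-fold higher in Smo-deficient MP was 1, and 0 with a pseudocount of 32, which shrinks every difference; the Mxd4 difference in MP ran from 0.58 to 0.72 over the scalings and the pseudocount. Over all probe sets, 67.7% of calls were higher in LSK, against 53.7% with quantile normalization, 40.4% with median centring, which moved the median difference to -0.12, and 86.8% without the block. The dim Mycl probe sets and Mnt 1418193_at limit what can be seen of those genes, and 1 array per group limits every genotype difference.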
